A study of Mus musculus with 4 samples.

Results

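Genes that copy DNA in S phase, outside the MCM helicase family, were examined in cells taken from the surface of the fetal mouse liver. The set was a list of 46 genes, chosen with earlier results of these data known, so counts over it describe the list and are no test. A gene entered through probe sets with that gene as their single platform symbol that were called Present on 2 or more of the 4 arrays, and the brightest of these by mean log2 signal stood for the gene. Of the 46 genes, 45 met this rule, among 11656 genes tested in all. Chaf1a, which encodes a subunit of the histone chaperone CAF-1, had no probe set with it as the single symbol and was not analysed here. Of the 45, 44 were Present on all 4 arrays, so the detection rule did not choose between genotypes. Gins3 was Present on 3 and Marginal on p57+/+ replicate 2.

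The cells were surgically isolated hepatic mesothelium, the sheet covering the liver, with the submesothelial cells beneath it, from C57BL/6 embryos at embryonic day 17.5. The p57-/- group (Kip2 -/- in the genotype label) lacks p57, the cyclin-dependent kinase inhibitor encoded by Cdkn1c, and the p57+/+ group is wild type. Each group had 2 samples, and the titles place 1 of each genotype in experiment 1 and 1 of each in experiment 2. The labels state neither how many embryos made a sample nor what an experiment shared, so a p-value here reflects the spread among these few samples alone, and that spread may be technical.

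Before S phase, the origin recognition complex with CDC6 and CDT1 loads the MCM2-7 helicase onto DNA, and geminin restrains CDT1. CDC7 with DBF4, and cyclin E with its kinase, then fire origins through CDC45 and the GINS complex, primase and polymerase alpha start each strand, and polymerases delta and epsilon extend it on the PCNA clamp. Most of these genes are transcribed as cells enter S phase under E2F factors, which pocket proteins hold in check until cyclin-dependent kinases act. p57 inhibits those kinases, and the fetal liver of this age also holds many dividing blood precursors.

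The genotype check held on every array. Cdkn1c gave signals of 7.79 and 7.28, called Absent, in p57-/- replicates 1 and 2, against 10255 and 9866 in p57+/+, called Present. It was the only gene past the threshold of an adjusted p of 0.05 (limma adjusted p = 1.8e-08). Between 48.5% and 50.1% of probe sets were Present on each array, and the median signal was 76.4 to 83.0. Of 16 mesothelial markers 15 were tested, and Upk3b, Msln and Wt1 were Present on all 4 arrays. Of 13 genes of submesothelial fibroblasts and mesenchyme 12 were tested, and 18 of 20 erythroid genes, so the samples also held red cell precursors. Hepatocyte and granulocyte RNA was present too. The hepatocyte gene Apoa1 gave 61858 to 70853 over the 4 arrays and the granulocyte gene S100a9 55200 to 61717, against 2334 to 3732 for Upk3b. In such mixed RNA, fewer cells of a type and less RNA per cell cannot be told apart.

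The promoters of members that lay lower in p57-/- are shown first, because E2F binding sites are the best known shared feature of these genes. RefSeq windows of GRCm38.p6, from 250 bases before to 50 after the start, were available for 37 of the 45 genes. They were searched on both strands for the E2F octamers TTTCCCGC, TTTCGCGC, TTTGCCGC and TTTGGCGC, and for the CCAAT box, CCAAT, whose last base can overlap the first of an octamer. The windows below run 5' to 3' on the strand of the gene, with the E2F octamers in capitals. They belong to 5 members with a match that were lower in both experiments, those of largest change among the 18 members taken by the rule for named genes, and to Dut, which had the smallest p-value by the brightest probe set and has no match. Uhrf1 has 2 windows in the table, and the one with a match is shown.
Orc1, chr4:108579204-108579503 (+ strand): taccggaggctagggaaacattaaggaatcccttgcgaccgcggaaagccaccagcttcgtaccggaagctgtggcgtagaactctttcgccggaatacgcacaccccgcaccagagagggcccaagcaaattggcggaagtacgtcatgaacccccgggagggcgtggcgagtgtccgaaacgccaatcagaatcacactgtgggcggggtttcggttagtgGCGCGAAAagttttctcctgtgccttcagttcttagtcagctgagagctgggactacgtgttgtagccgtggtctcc
Pola1, chrX:93632106-93632405 (- strand): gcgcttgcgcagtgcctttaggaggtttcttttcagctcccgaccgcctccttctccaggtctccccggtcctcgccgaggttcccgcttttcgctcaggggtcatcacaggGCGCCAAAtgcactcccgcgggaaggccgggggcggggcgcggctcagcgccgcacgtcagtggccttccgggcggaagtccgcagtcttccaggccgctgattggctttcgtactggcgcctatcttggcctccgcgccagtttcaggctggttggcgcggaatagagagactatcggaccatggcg
Uhrf1, chr17:56304063-56304362 (+ strand): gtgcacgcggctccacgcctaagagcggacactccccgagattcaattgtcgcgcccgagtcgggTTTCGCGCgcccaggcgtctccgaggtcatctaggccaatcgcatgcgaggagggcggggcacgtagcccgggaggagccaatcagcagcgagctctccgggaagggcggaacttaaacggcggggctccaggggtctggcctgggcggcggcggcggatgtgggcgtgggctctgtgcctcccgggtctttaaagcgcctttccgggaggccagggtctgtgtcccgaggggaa
Pole2, chr12:69228141-69228440 (- strand): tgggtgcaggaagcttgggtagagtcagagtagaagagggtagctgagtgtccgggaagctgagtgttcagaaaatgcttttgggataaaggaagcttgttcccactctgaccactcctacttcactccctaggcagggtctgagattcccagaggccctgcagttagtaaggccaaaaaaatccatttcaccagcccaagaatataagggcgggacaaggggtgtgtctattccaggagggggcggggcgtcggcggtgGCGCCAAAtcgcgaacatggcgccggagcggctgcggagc
Rfc3, chr5:151651159-151651458 (- strand): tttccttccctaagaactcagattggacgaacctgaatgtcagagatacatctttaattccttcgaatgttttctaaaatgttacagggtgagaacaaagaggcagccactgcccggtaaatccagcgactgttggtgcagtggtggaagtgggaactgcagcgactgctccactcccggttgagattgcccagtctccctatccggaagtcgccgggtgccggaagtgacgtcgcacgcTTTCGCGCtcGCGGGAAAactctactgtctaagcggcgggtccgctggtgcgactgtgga
Dut, chr2:125247265-125247564 (+ strand): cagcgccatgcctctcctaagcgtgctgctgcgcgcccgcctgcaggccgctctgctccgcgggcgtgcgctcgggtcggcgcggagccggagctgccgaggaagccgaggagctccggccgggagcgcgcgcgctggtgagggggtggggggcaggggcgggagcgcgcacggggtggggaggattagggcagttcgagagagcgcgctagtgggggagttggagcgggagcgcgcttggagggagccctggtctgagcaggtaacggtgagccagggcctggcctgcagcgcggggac
The Orc1 match began 27 bases before the start, that of Pola1 138 and that of Uhrf1 185 bases before it. In Pole2 the match began 10 bases after the start, and Rfc3 held matches beginning 10 bases before the start and at it.

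An E2F octamer occurred in 13 of the 37 genes (35.1%), against 4.66% of 9482 tested genes with a window and 2.6% of all 27025 genes with one. Of members lower in both experiments, 11 of 23 held one, and of members with opposite experiments, 2 of 14. The same split was not made over all tested genes, and the difference between these 2 counts was not tested. By the brightest probe set, some members lower in both were near 0 in experiment 2, such as Orc2 at -0.01 and Rrm2 at -0.05. Their other tested probe sets were at -0.32 and -0.52 for Orc2, and at -0.05 and -0.37 for Rrm2. The CCAAT box occurred in 20 of 37 members (54.1%), against 43.0% of those tested genes and 41.1% of all genes with a window. A match describes the letters of the window and shows no binding, and no match says only that these letters are not in it.

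Replication genes lay lower in p57-/- cells in experiment 1, while experiment 2 showed little difference. Of the 45 genes, 44 had a lower mean log2 signal in p57-/-, where 47.4% of all tested genes did. In experiment 1, 44 were lower (46.3% of all tested genes), and in experiment 2, 27 were lower (50.8%). Lower in both were 26 members, 57.8% of them against 26.7% of all genes. None was higher in both, which 29.6% of all genes were. At least 1.5-fold lower were 16 members in experiment 1 (6.29% of all genes) and 1, Gins3, in experiment 2 (5.64%). At least 1.5-fold higher were 0 members in either experiment, where 7.17% and 4.57% of all genes were. The median log2 change of the members, p57-/- minus p57+/+, was -0.50 in experiment 1, -0.07 in experiment 2 and -0.31 in the fit of all 4 arrays, where the median of all genes was 0.02.

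No member passed the test over all probe sets, which called 1 of 22800 probe sets (0.00439%) and so 0.00858% of genes, Cdkn1c. By the brightest probe set of each member the smallest adjusted p was 0.549, and over all tested probe sets of the members it was 0.519. At an unadjusted p under 0.05, 9 members were lower and 0 higher, where 4.07% of all tested genes were lower and 4.7% higher. A fit with the experiment number as a replicate block called 0 members too, with a smallest adjusted p of 0.195, while 0.197% of genes passed.

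**Figure D1:**
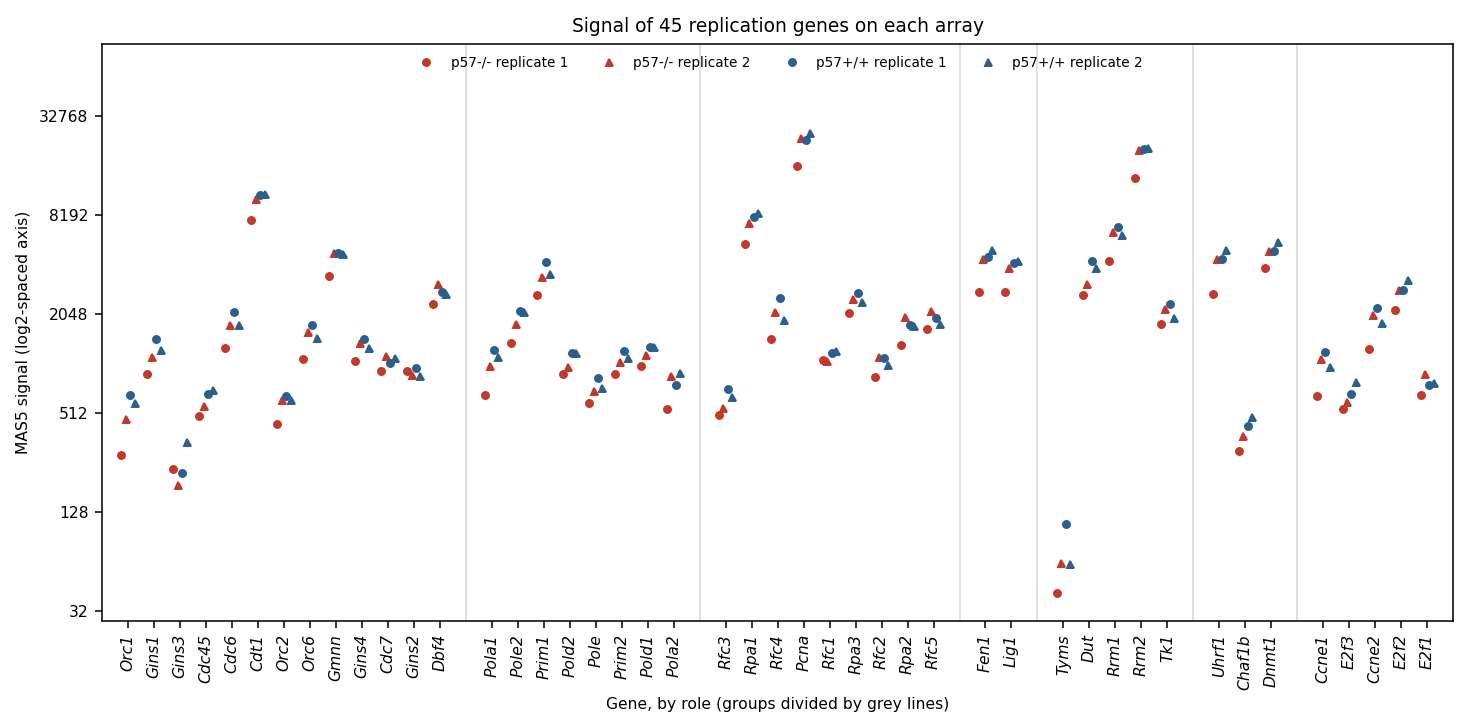
MAS5 signal of the 45 replication genes (vertical, log2-spaced axis) on each array, with genes grouped by role (horizontal) and ordered by change within a role. Red marks p57-/- and blue p57+/+, with circles for replicate 1 and triangles for replicate 2; the red circle is the lowest point for 42 of 45 genes.

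The lowest signals lay on the array of p57-/- replicate 1. It was the lowest of the 4 for 42 of 45 members, as it was for 27.8% of all tested genes. It lay below both p57+/+ arrays for 43 members (35.1% of all genes), between them for 2 and above both for 0. The p57-/- replicate 2 array lay below both p57+/+ arrays for 24 members (33.2% of all genes), between them for 14 and above both for 7. Summed over the 45 probe sets, the signal was 100707 and 139155 in p57-/- replicates 1 and 2, against 146180 and 146174 in p57+/+. A few bright genes, Pcna, Rrm2 and Cdt1 among them, carry much of these sums, and by role the p57+/+ replicate 2 sum was 93.3% to 113% of that of replicate 1. The p57-/- sums over all members were 68.9% and 95.2% of the p57+/+ array of the same experiment. Without p57-/- replicate 1 the median log2 change was -0.10, with 34 of 45 members of lower mean log2 signal, against 47.8% of all genes.

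**Figure D2:**
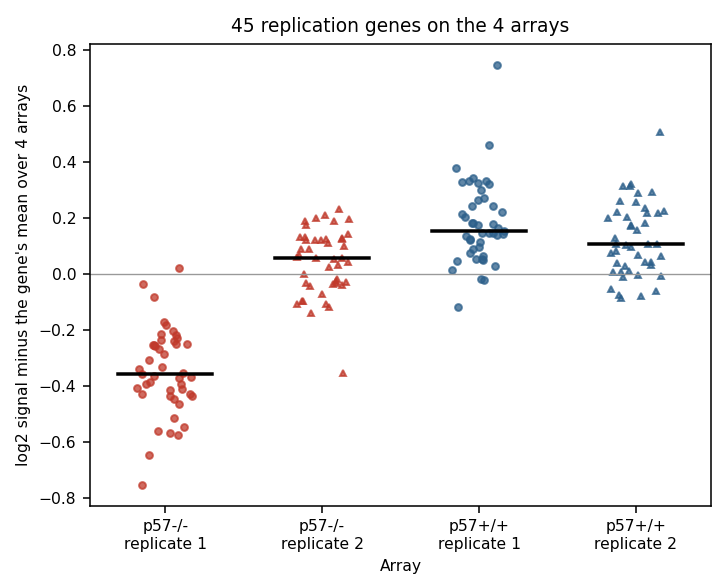
Log2 signal of each of the 45 replication genes minus that gene's mean over the 4 arrays (vertical), by array (horizontal); points are genes and the black bar is their median. The medians are -0.36 and 0.06 for p57-/- replicates 1 and 2, and 0.15 and 0.11 for p57+/+ replicates 1 and 2.

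The 2 arrays of a genotype can be set against each other in the same way. Replicate 2 minus replicate 1 of p57-/- had a median log2 difference of 0.41 over the members, with 42 of 45 above 0, as were 49.4% of all genes. In p57+/+ the median was -0.04, with 17 of 45 above 0, against 53.8% of all genes. The median change between genotypes, also taken between single arrays, was -0.50 in experiment 1 and -0.07 in experiment 2. In size the median difference within p57-/- lay between these 2.

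Origin licensing and firing genes held the member of largest change by the brightest probe set, Orc1. Orc1 encodes the large subunit of the origin recognition complex and its transcription is under E2F control. Its signal was 283 and 470.2 in p57-/-, against 656 and 592 in p57+/+. Both p57-/- arrays lay below both p57+/+ arrays, and the fitted log2 change was -0.77 (SE 0.24, limma adjusted p = 0.549). Gins1, which encodes a GINS subunit of the active helicase, gave 879 and 1126 in p57-/-, against 1450.2 and 1241 in p57+/+. Its groups did not overlap either, at -0.43 (SE 0.17, adjusted p = 0.611). Cdc45, the helicase cofactor joined to MCM2-7 by GINS, gave 493 and 562 in p57-/-, against 665 and 708 in p57+/+. It was close in size in both experiments, at -0.43 and -0.33.

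The other 10 licensing and firing genes divided by experiment. Orc2 and Cdt1 were lower in both, Cdt1 at 7682 and 10226 in p57-/-, against 10889 and 10956 in p57+/+. Orc6, Cdc6, Gmnn, Gins2, Gins4, Cdc7 and Dbf4 were lower in experiment 1 and slightly higher in experiment 2, where they lay between 0.02 and 0.21. For Cdc6, the loader that brings MCM2-7 to origins, these changes were -0.73 and 0.02. Gmnn, the inhibitor of CDT1, was at -0.45 and 0.02. The kinase genes Cdc7 and Dbf4 had mean changes of -0.06 (SE 0.16) and -0.01 (SE 0.15). By the brightest probe set Gins2 had a mean change of -0.02 (SE 0.15), against -0.43 (SE 0.17) for Gins1 of the same complex. The dimmer probe sets did not show this contrast, with Gins2 at -0.18 (SE 0.21) and Gins1 at -0.13 (SE 0.37). Gins3 ran the other way, with 234 and 188 in p57-/-, against 221 and 341 in p57+/+, and was the 1 member higher in experiment 1.

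Polymerase and primase genes were lower in both experiments in 8 of 8 cases, against 26.7% of all tested genes. In experiment 2 their median was only -0.13, and Prim1, Pola2, Pole and Prim2 lay between -0.09 and -0.07. Pola1, which encodes the catalytic subunit of polymerase alpha, gave 656 and 990.4 in p57-/-, against 1233 and 1119 in p57+/+. Its arrays did not overlap, and the fitted log2 change was -0.54 (SE 0.20, adjusted p = 0.585). Pole2, an accessory subunit of the leading-strand polymerase epsilon, gave 1374 and 1779 in p57-/-, against 2124 and 2119 in p57+/+. The p57+/+ arrays of Pole2 were nearly equal, and the change was -0.44 (SE 0.15, adjusted p = 0.578). Prim1, the catalytic primase subunit that lays RNA primers, gave 2657 and 3427 in p57-/-, against 4221 and 3593 in p57+/+, a change of -0.37 (SE 0.15, adjusted p = 0.633). Its dimmer probe set had changes of -0.33 and 0.10 in the 2 experiments.

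The remaining 5, Pola2, Prim2, Pold1, Pold2 and Pole, had mean changes from -0.36 to -0.28. Among them Pold2, a subunit of the lagging-strand polymerase delta, had the evenest p57+/+ arrays, 1190.2 ± 4.63, against which p57-/- stood at 930.0 ± 65.2 (SD, n = 2 each). In 7 of the 8 genes both p57-/- arrays lay below both p57+/+ arrays, Pola2 being the exception. Over all 45 members this held for 23, or 51.1%, and for 19% of all tested genes. In 0 members did both p57-/- arrays lie above, which 21.7% of all genes did.

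**Figure D3:**
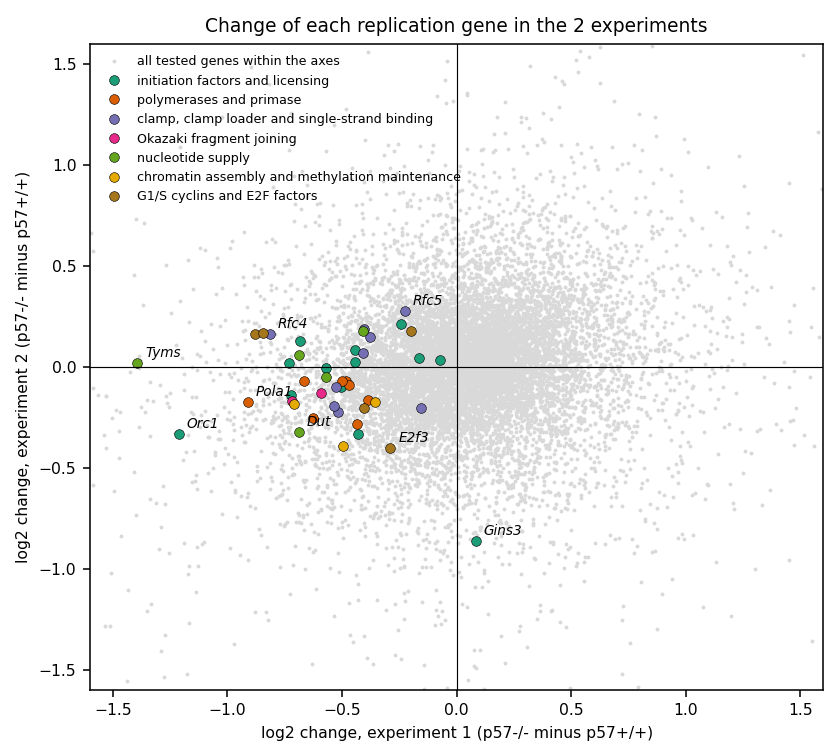
Log2 change in experiment 1 (horizontal) against experiment 2 (vertical), p57-/- minus p57+/+, for the 45 replication genes coloured by role and for all tested genes within the axes in grey. The members lie left of 0 except Gins3, and spread around 0 on the vertical axis, with Orc1 at -1.21 and -0.33.

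The sliding clamp and its partners were less even. Pcna, the clamp that holds polymerases on DNA, was the brightest member, with 16251 and 23946 in p57-/-, against 23404 and 25658 in p57+/+. The p57-/- replicate 2 value lay between the p57+/+ arrays, so the groups overlapped, and the change was -0.31 (SE 0.17, adjusted p = 0.679). Rfc3, a subunit of the clamp loader, gave 499 and 547 in p57-/-, against 713 and 640.3 in p57+/+, a change of -0.37 (SE 0.17, adjusted p = 0.642). Rpa1, the large subunit of the single-strand binding protein RPA, gave 5495 and 7375 in p57-/-, against 7968 and 8429 in p57+/+, a change of -0.36 (SE 0.15, adjusted p = 0.628). The groups did not overlap for Rfc3 and Rpa1.

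The clamp loader subunits differed among themselves. Rfc1, the large subunit, gave 1069.6 and 1059 in p57-/-, against 1193 and 1219.7 in p57+/+, with changes of -0.16 in experiment 1 and -0.20 in experiment 2. Rfc4 had changes of -0.81 and 0.16 in experiments 1 and 2, and -0.73 and -0.04 by its dimmer probe set. Rfc5, which encodes a small subunit of the loader, was the 1 member with a higher mean log2 signal in p57-/-, at 0.03 (SE 0.16). Rfc2 was at -0.12 (SE 0.17), and its probe sets disagreed, the dimmest, being at 0.37 (SE 0.22). Rpa2 and Rpa3, the smaller RPA subunits, were at -0.11 (SE 0.18) and -0.17 (SE 0.15), and the dimmer probe set of Rpa2 at -0.37 (SE 0.19), with -0.71 and -0.03 in the 2 experiments.

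Both genes of Okazaki fragment joining were lower in both experiments, as were 26.7% of all tested genes. Fen1, the nuclease that trims the flap of each fragment, gave 2770.2 and 4449 in p57-/-, against 4552 and 4996 in p57+/+, a change of -0.44 (SE 0.20, adjusted p = 0.642). Lig1, the ligase that seals the nick, gave 2768 and 3908 in p57-/-, against 4174 and 4279 in p57+/+, a change of -0.36 (SE 0.16, adjusted p = 0.642). In each gene p57-/- replicate 1 stood well apart and p57-/- replicate 2 stood just under the p57+/+ arrays.

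Among genes of nucleotide supply, Dut had the smallest p-value of all members by the brightest probe set. Dut encodes dUTPase, which keeps uracil out of DNA. It gave 2679 and 3129 in p57-/-, against 4313 and 3909 in p57+/+, with no overlap, -0.69 in experiment 1 and -0.32 in experiment 2. The fitted change was -0.50 (SE 0.13, unadjusted p = 0.00378, adjusted p = 0.549). Its promoter window above held no E2F octamer. Rrm2, the regulated subunit of ribonucleotide reductase, gave 13815 and 20233 in p57-/-, against 20518 and 20966 in p57+/+, a change of -0.31 (SE 0.16). Its 3 probe sets were all lower in both experiments, the dimmest at -0.57 (SE 0.16, adjusted p = 0.549).

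Rrm1, Tk1 and Tyms were lower in experiment 1 and not in experiment 2. The changes of Rrm1, the large reductase subunit, were -0.69 and 0.06, and those of the salvage kinase gene Tk1 -0.41 and 0.18. Tyms, which makes thymidylate, was the dimmest member, with 41.3 and 62.9 in p57-/-, against 108 and 62.0 in p57+/+. Its change of -0.69 (SE 0.46) rested on the experiment 1 arrays, and its other 3 probe sets were called Present on 0 arrays.

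The genes that restore chromatin behind the fork were lower in both experiments, 3 of 3 tested, with no overlap in any by the brightest probe set. Over all tested genes, 26.7% were lower in both, and 19% had both p57-/- arrays below both p57+/+ arrays. Chaf1b, a CAF-1 subunit that deposits new histones, gave 301 and 371 in p57-/-, against 425 and 487 in p57+/+, a change of -0.45 (SE 0.20, adjusted p = 0.642). Uhrf1, which binds hemimethylated DNA behind the fork, gave 2721 and 4439 in p57-/-, against 4453 and 5043 in p57+/+, a change of -0.45 (SE 0.20, adjusted p = 0.644). Dnmt1, the maintenance DNA methyltransferase that UHRF1 recruits, gave 3880.0 and 4948 in p57-/-, against 4964 and 5580.0 in p57+/+, a change of -0.26 (SE 0.14, adjusted p = 0.685). The dimmest of 3 tested Dnmt1 probe sets was at -0.43 and 0.13 in the 2 experiments. Chaf1b was nearly as low in experiment 2, at -0.39, as in experiment 1, at -0.50.

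Among the regulators that open S phase, E2f2 and E2f3 were lower in both experiments, while Ccne1, Ccne2 and E2f1 were lower in experiment 1 and higher in experiment 2. Ccne1 and Ccne2, the E-type cyclins, were at -0.88 and -0.85 in experiment 1 and at 0.16 and 0.17 in experiment 2. By its brightest probe set Ccne1 gave 653 and 1089 in p57-/-, against 1201 and 974 in p57+/+, which overlap. Its other tested probe set differed, with 541 and 716 in p57-/-, against 1066 and 1110.1 in p57+/+, and no overlap. That probe set was at -0.98 in experiment 1 and -0.63 in experiment 2, with a fitted change of -0.81 (SE 0.18, unadjusted p = 0.00118, adjusted p = 0.519), so the direction of Ccne1 in experiment 2 depends on the probe set. E2f3, an activating E2F factor, gave 545 and 595 in p57-/-, against 665 and 786 in p57+/+, a change of -0.35 (SE 0.17, adjusted p = 0.653) with no overlap. E2f2 gave 2155 and 2862 in p57-/-, against 2850.5 and 3292 in p57+/+, a change of -0.30 (SE 0.16, adjusted p = 0.679), with p57-/- replicate 2 just above the lower p57+/+ array. E2f1, the founding activator, was at -0.01 (SE 0.18), and its other tested probe set was at 0.07.

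Several probe sets per gene mostly gave the same direction of the fitted change. Of 23 members with more than 1 tested probe set, 21 had lower mean log2 signals with all of them, and Rfc2 and E2f1 did not. Over all 73 tested probe sets of the members, 70 had a lower mean log2 signal. Whether experiment 2 was lower or higher differed between the probe sets of Ccne1, Dnmt1, Prim1, Rfc4 and Rpa2. The 17 others, of 90, were Present on 0 arrays. Set against each other over the 45 members, experiments 1 and 2 gave a Pearson coefficient of -0.11 and a Spearman coefficient of 0.05, and of 0.11 and 0.12 without Gins3, a description across genes that share arrays.

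Other genes of replication and S phase also had medians below 0, and 0 of them passed. Of 30 tested genes of the replisome and licensing that are no members, 20 were lower in both experiments and 1 higher. Of all tested genes, 26.7% were lower in both and 29.6% higher. The medians of these 30 were -0.40 in experiment 1 and -0.10 in experiment 2. Donson, a replication fork protein, gave 576 and 1083 in p57-/-, against 1660.1 and 1431 in p57+/+, at -0.96 (SE 0.26, adjusted p = 0.549). Dscc1, Nasp and Tipin were at -0.61, -0.55 and -0.51. Of 12 nucleotide synthesis genes, 7 were lower in both and 2 higher, with medians of -0.23 and -0.07. Dctd, Ctps and Umps were at -0.50, -0.49 and -0.34, and Rrm2b, a reductase subunit used outside S phase, at 0.27 (SE 0.20). Of 25 genes of G1/S control and the S-phase checkpoint, 13 were lower in both and 2 higher, with medians of -0.38 and -0.04. E2f8 and E2f6, repressive E2F factors, were at -0.51 and -0.44, and Dtl and Tfdp2 at -0.37 and -0.35.

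The MCM2-7 helicase genes, 6 of 6 lower in both experiments, had medians of -0.64 in experiment 1 and -0.24 in experiment 2. Mcm2 was at -0.87 and -0.49, and Mcm6 at -0.77 and -0.40. Mcm4 was nearly even, at -0.53 and -0.58, while Mcm5 was at -0.74 and -0.04. Genes of G2/M and mitosis, which act after S phase, had medians of -0.27 and 0.07, with 9 of 26 lower in both experiments and 1 higher. The other 16 had opposite directions in the 2 experiments. Lower in both were thus 34.6% of this list, against 26.7% of all tested genes. By mean log2 signal 18 of the 26 were lower and 8 higher in p57-/-, with a median of -0.105. The genes named next were picked as changed the same way in both experiments. Foxm1, a factor for mitotic genes, had the lowest mean change of the list, with -0.69 and -0.44. Cenpe was at -0.43 and -0.11, Cenpf at -0.50 and -0.01, and Mki67, a marker of dividing cells, at -0.41 and -0.09. These lists are set side by side, and the differences between them were not tested.

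Markers of other cell types differed between the arrays too. Of 18 tested erythroid genes, 18 had a lower mean log2 signal in p57-/- (47.4% of all tested genes). Lower in both experiments were 15 of them (26.7% of all tested genes), with medians of -0.69 in experiment 1 and -0.20 in experiment 2. Their summed signal was 101832 and 141603 in p57-/-, against 153752 and 161759 in p57+/+. Slc4a1 and Tfrc were their 2 brightest genes by mean signal, and the dimmest of the 18 on p57-/- replicate 1, Sptb, had a signal of 450.0. As a share of the same experiment's p57+/+ array the erythroid sum was 66.2% and 87.5%, and the replication sum 68.9% and 95.2%. B-lymphoid progenitor genes, 4 tested of 8, were at -0.84 and 0.01. Megakaryocyte, endothelial and macrophage genes ran opposite by median in experiment 1, at 0.55, 0.42 and 0.25, and were at -0.19, -0.15 and -0.18 in experiment 2. Macrophage genes were mixed, with 4 of 11 lower in experiment 1, 3 lower in both and 2 higher in both. Mesothelial genes were at 0.04 and -0.06, but these medians cover genes that moved in different directions. Of the 15 tested, 5 had more signal in p57-/- each time, 6 had less each time, and 4 switched direction. Their changes ran from -0.93 to 0.83 in experiment 1 and from -0.86 to 0.69 in experiment 2, and 0 passed the threshold. Mesenchymal genes were at 0.29 and 0.07. Granulocyte genes were at 0.18 and 0.14, and hepatocyte genes at 0.20 and -0.18. The part of cell makeup in the replication gene values was not tested.

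**Figure D4:**
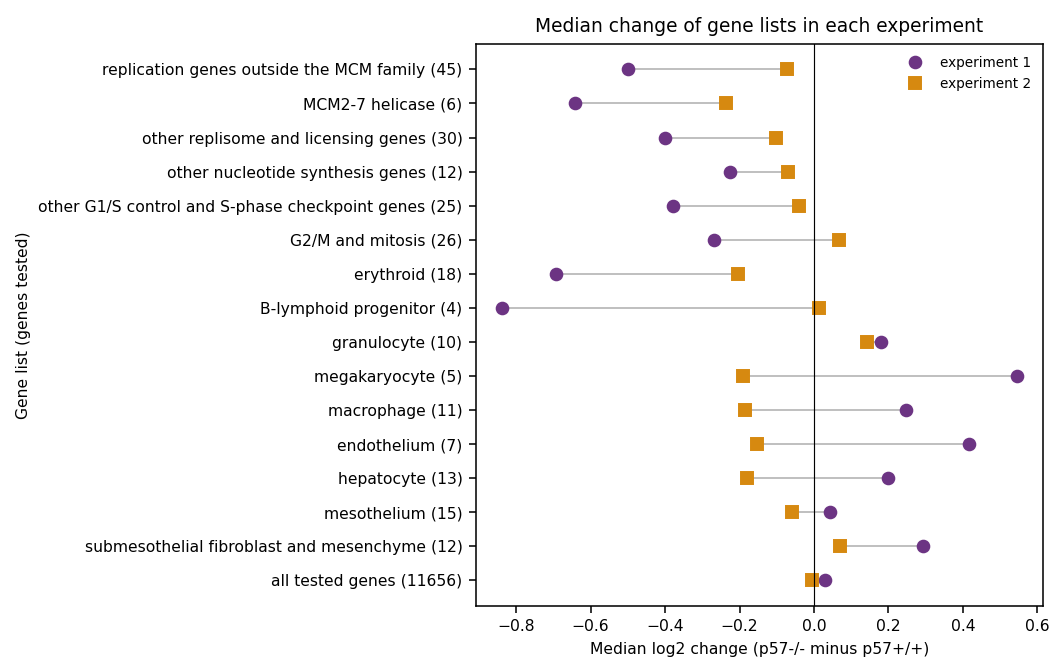
Median log2 change, p57-/- minus p57+/+ (horizontal), of gene lists (vertical, with genes tested) in experiment 1 (circles) and experiment 2 (squares). The replication genes lie at -0.50 and -0.07, the MCM2-7 genes at -0.64 and -0.24 and the erythroid genes at -0.69 and -0.20.

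Leaving out p57-/- replicate 2 was the 1 alternative in which members passed. Fen1 (-0.78, adjusted p = 0.0326), Uhrf1 (-0.80, adjusted p = 0.0326) and Orc1 (-1.14, adjusted p = 0.0375) then fell past the threshold in limma, where 0.729% of all genes were called lower. In that fit p57-/- is a single sample, assumed to vary like p57+/+. Without p57-/- replicate 1, 0 members passed and the smallest adjusted p was 0.743.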

How the data were processed

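Total RNA (250 ng) of 4 samples was labelled as biotinylated cRNA and read on 1 Affymetrix array each, per the labels' protocols. The authors deposited MAS5 signal intensity per probe set on a linear scale, with a detection p-value and a Present, Marginal or Absent call, per the file headers, with MAS5 named in the submitters' processing notes; the MAS5 version is not stated there. After trimming 2% at each end, the mean was 500.003 on every array, so each array had been scaled to 1 target, which hides any change in total RNA. The deposited value table held the same values within 5e-04%.

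Signals were log2 transformed with no pseudocount. Probe sets Present on at least 2 arrays, controls left out, gave 22800 tests. limma 3.58.1 in R 4.3.3 (lmFit, eBayes with a variance trend, no block, two-sided) compared genotypes, with Benjamini-Hochberg adjustment over all of them. The fit was tested on simulated data. Symbols came from the platform annotation (34945 probe sets with 1 symbol, 932 with several, 9160 with none). Same-numbered arrays deviated from their genotype means with a correlation of 0.0046, and the labels do not say what a number marks, so the block was an alternative. The members and lists were chosen with earlier results of these data known. Per-array values are given for up to 3 members per role with the largest change in the same direction in both experiments; the others shown (Cdt1, Gins3, Pold2, Rfc1, Tyms, Ccne1) were chosen after their values were seen. For other pathway lists the same rule took up to 4 genes. Alternatives were the block, no variance trend, quantile normalization, other detection filters, log2(signal + 32), averaging a gene's probe sets, the value table and leaving out each array. The number of arrays limits the precision.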

Additional observations from a re-analysis of the deposited data

How the results depend on the processing

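Across 12 alternatives, the median log2 change of the 45 members stayed below 0, from -0.51 to -0.10 when 1 array was left out and from -0.33 to -0.31 otherwise. The 26 members lower in both experiments became 25 with quantile normalization and stayed 26 in the other alternatives that could change the count, while 0 were higher in both throughout. The number of members past the threshold was 0 in all alternatives that kept 4 arrays and ranged from 0 to 3 when 1 array was left out, the 3 appearing without p57-/- replicate 2, where the fit has fewer samples. The fit with the replicate block called 0 members, and its fitted changes equal those without the block (median -0.31), so it changed no call of a member; all genes called were 23. Of the 18 members given by the rule for named genes, none turned direction in any alternative. That rule took members with the same direction in both experiments, which largely fixes this outcome, so it is no sign of robustness. Leaving out an array gives no value for counts over both experiments. With 2 arrays per genotype, a difference of the sizes seen here can be missed, and the 2 experiments have 1 array per genotype, so their difference could not be tested.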
